A study of Mus musculus with 8 samples.

Results

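Phospholipase A2 enzymes release a fatty acid, often arachidonic acid, from the middle position of membrane or lipoprotein phospholipids. They were followed here as 10 mouse genes, Pla2g4a, Pla2g4b, Pla2g4c, Pla2g6, Pla2g7, Pla2g1b, Pla2g2d, Pla2g5, Pla2g12a and Pla2g12b, taken by gene name from the array annotation. These genes held 15 of the 41174 non-control probes, and 4 of them had more than 1 probe. Of the 15 probes, 13 passed the detection filter (signal in 3 or more of 4 mice for the STD or the ATH diet), and they covered 9 of the 10 genes. Only 11 of the 15 probes met this for both diets.

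The livers came from wild-type male C57BL/6 mice aged 14 to 17 weeks when feeding began. For 4 weeks, 4 mice were administered standard chow (STD diet) and 4 mice a high-fat, high-cholesterol atherogenic diet with cholic acid (ATH diet). The ATH diet is a feeding model of fatty liver with inflammation, and the part of each of its components was not tested. Each mouse gave 1 array of Cy3-labeled liver RNA, so the replicates were separate animals, and their number limits the precision. Each diet had a slide of its own, and an effect of the slide therefore cannot be told apart from that of the diet. Between 72.0% and 77.4% of probes were well above background on each array, and 17 of 18 hepatocyte marker genes (the other had no probe) were detected, with a summed level on the log2 scale of 12.11 to 12.23 on STD arrays and 11.63 to 11.99 on ATH arrays. Levels below are the log2 processed signal minus the 75th percentile of the array, called the scaled log2 level. A level of 0 is the signal that 75% of probes on the array did not exceed, and levels are compared between mice for the same probe. Across probes, levels serve for summed levels, for choosing the brightest probe of a gene, and for differences within an array. Those differences are then compared between diets. Before scaling, this percentile was higher on ATH arrays by 0.45, and after scaling the median log2 fold change of all 31063 tested probes was -0.15.

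The family falls into enzymes inside the cell and enzymes that are secreted. Cytosolic group IV enzymes are recruited to membranes and supply arachidonic acid for eicosanoids, the calcium-independent Pla2g6 takes part in membrane remodelling, and Pla2g7 (lipoprotein-associated phospholipase A2, or platelet-activating factor acetylhydrolase) circulates on lipoproteins and removes oxidised short chains. The small secreted enzymes include the pancreatic Pla2g1b, Pla2g2d of lymphoid tissue, Pla2g5 and the group XII pair Pla2g12a and Pla2g12b, the latter lacking catalytic activity. In liver, hepatocytes, Kupffer cells and recruited macrophages each carry members of the family.

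The probes behind the results on Pla2g4a, Pla2g7 and Pla2g6 are shown first, because the results turn on those genes. Each is a 60 base oligonucleotide given 5′ to 3′ as the array files hold it, with positions in the mm7 mouse assembly of the array design.
Pla2g4a, brighter probe, chr1:149755624-149755683, minus strand: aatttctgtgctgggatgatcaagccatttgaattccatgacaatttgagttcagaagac
Pla2g4a, dimmer probe, chr1:149755785-149766269, minus strand: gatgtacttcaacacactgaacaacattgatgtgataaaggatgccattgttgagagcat
Pla2g7, chr17:41727663-41731585, plus strand: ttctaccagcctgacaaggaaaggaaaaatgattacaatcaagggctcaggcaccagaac
Pla2g6, chr15:79369707-79369766, minus strand: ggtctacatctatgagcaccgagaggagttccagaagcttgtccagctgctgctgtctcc
The dimmer Pla2g4a probe spanned 10485 bases of the genome and the Pla2g7 probe 3923 bases, so each of them crossed at least 1 intron. The other 2 lay on contiguous genomic sequence, and at least 1 reading frame was open over all 60 bases of each of the 4 probes.

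Pla2g4a, the group IV enzyme with a preference for arachidonic acid, and Pla2g7 rose in mice administered the atherogenic diet, 3.34-fold and 7.16-fold respectively. No other member passed a false discovery rate of 5% in limma over all tested probes. The count was therefore 2 of the 9 tested genes, both higher, against 9.35% of all 16562 tested genes called by their brightest probe, 4.05% higher and 5.3% lower. At a false discovery rate of 1%, 0 members passed by limma, against 0.64% of genes, while 4 of the 13 tested member probes had an unadjusted p under 0.05 (3 higher and 1 lower on the ATH diet), beside 28.4% of all tested probes.

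On the STD diet the brighter Pla2g4a probe had scaled log2 levels of -3.23, -3.30, -3.01 and -3.21, and on the ATH diet -2.05, -2.54, -0.67 and -0.54 (mice 1 to 4). Every ATH mouse lay above every STD mouse, and ATH mice 3 and 4 lay well above ATH mice 1 and 2. The means were -3.19 ± 0.13 and -1.45 ± 0.997 (SD, n = 4), and the log2 fold change was 1.74 (SE 0.42, 95% interval 0.78 to 2.70, limma adjusted p = 0.0433). The dimmer probe of the gene followed the same order of mice on the ATH diet, with -3.48, -3.88, -2.05 and -1.91 against -4.32, -4.52, -4.44 and -4.05 on the STD diet. Its log2 fold change of 1.501 (SE 0.43) had a limma adjusted p of 0.0633 and did not pass, although its groups did not overlap either.

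The Pla2g7 probe had scaled log2 levels of -2.91, -2.84, -2.64 and -2.40 on the STD diet and -0.67, -1.83, 1.44 and 1.63 on the ATH diet. The groups did not overlap, and the order of the ATH mice was the one seen for Pla2g4a. The means were -2.70 ± 0.23 and 0.14 ± 1.68 (SD, n = 4), with a log2 fold change of 2.84 (SE 0.70, 95% interval 1.25 to 4.42, limma adjusted p = 0.0443). The spread among ATH mice was wide for both genes. The ratio of the ATH to the STD SD was 7.95 for the brighter Pla2g4a probe and 7.42 for Pla2g7. The limma SE, interval and p take a common variance for both diets, which these SDs do not bear out. A t test with unequal variances gave adjusted p of 0.2 for Pla2g4a and 0.205 for Pla2g7. Only 0.312% of tested probes had a larger SD on the ATH diet than Pla2g7, and 3.20% had a larger SD than the brighter Pla2g4a probe.

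Among the 13 tested member probes, 3 had no overlap between diets with ATH higher (both of Pla2g4a and that of Pla2g7) and 0 with ATH lower, against 6.01% and 13.8% of all tested probes. Both calls lay close to the threshold. With the replicate number as a block, for arrays sharing a slide position, the limma adjusted p was 0.0533 for Pla2g4a and 0.0523 for Pla2g7, and 0 members passed. Without ATH mice 3 and 4, a comparison of values with no test chosen after seeing the data, the log2 differences were 0.89 for Pla2g4a and 1.45 for Pla2g7.

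**Figure D1:**
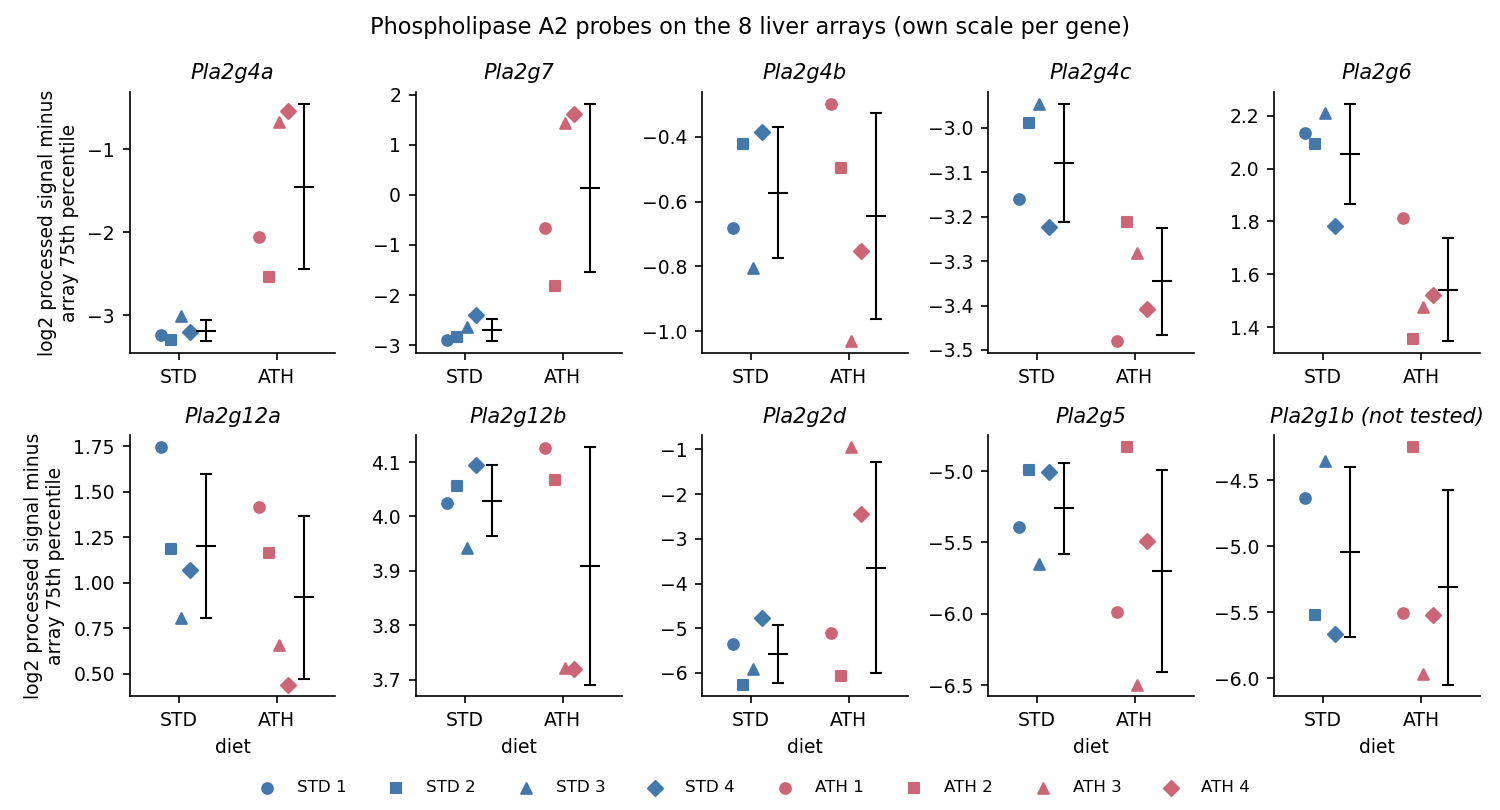
Scaled log2 levels (log2 processed signal minus the array 75th percentile, y axis, a separate scale for each gene) of the 10 phospholipase A2 genes by diet (x axis). Each symbol is 1 mouse, shown by its replicate number, and the bar beside each group is the mean with SD (n = 4). Genes with several probes are shown by the brightest tested probe. ATH mice 3 and 4 stand highest for Pla2g4a (-0.67 and -0.54), Pla2g7 (1.44 and 1.63) and Pla2g2d (-0.95 and -2.45). The groups are apart for Pla2g4a and Pla2g7, and overlap for the other genes, Pla2g2d included.

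Pla2g6 was the member with the clearest difference in the other direction, although it did not pass. Its scaled log2 levels were 2.14, 2.09, 2.21 and 1.78 on the STD diet and 1.81, 1.35, 1.48 and 1.52 on the ATH diet. The groups met only at STD mouse 4 and ATH mouse 1. The log2 fold change was -0.51 (SE 0.15, 95% interval -0.85 to -0.18), with a limma adjusted p of 0.0666. It passed with normexp background correction (adjusted p = 0.0314) and with limma's trend and robust options (adjusted p = 0.0427), and it shrank to -0.07 without scaling between arrays.

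The other cytosolic members did not pass in limma. Pla2g4c, a group IV enzyme that acts without calcium, had levels of -3.16, -2.99, -2.95 and -3.22 on the STD diet and -3.48, -3.21, -3.28 and -3.41 on the ATH diet at its tested probe. The groups met only at STD mouse 4 and ATH mouse 2, and the log2 fold change was -0.27 (SE 0.12, 95% interval -0.55 to 0.02, limma adjusted p = 0.198). Its direction turned under spike-in scaling (0.05) and on unscaled values (0.18). The second Pla2g4c probe was not well above background on any array and was not tested.

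Pla2g4b was read by 3 probes. The brightest had a log2 fold change of -0.07 (95% interval -0.49 to 0.34, limma adjusted p = 0.824), with levels of -0.80 to -0.39 on the STD diet and -1.03 to -0.30 on the ATH diet. The other probes gave 0.17 each (limma adjusted p = 0.526 and 0.529). Probes of the gene thus disagreed in sign, and none of the 3 differences exceeded the spread between mice. The brightest probe lay 9507 bases or more before the other pair in the mm7 assembly, and a later RefSeq annotation places the gene Jmjd7 directly before Pla2g4b, so the transcript it reads is uncertain.

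Of the secreted members, Pla2g12b and Pla2g12a differed by less than the spread between mice allows to call. Pla2g12b, which is made in liver and intestine, had levels of 4.02, 4.06, 3.94 and 4.10 on the STD diet and 4.13, 4.07, 3.72 and 3.72 on the ATH diet. The log2 fold change was -0.12 (SE 0.14, 95% interval -0.43 to 0.19, limma adjusted p = 0.590), and ATH mice 3 and 4 were the lowest of the 8. Both Pla2g12a probes placed STD mouse 1 highest and ATH mouse 4 lowest, from 1.74 to 0.44 at the brighter probe and from 1.23 to -0.13 at the other. The Pla2g12a log2 fold changes were -0.28 (95% interval -0.88 to 0.32) and -0.42 (95% interval -0.98 to 0.14), with limma adjusted p of 0.509 and 0.291. Without scaling, the direction turned for Pla2g12b (0.33) and for the brighter Pla2g12a probe (0.17).

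Pla2g2d, an enzyme known from dendritic cells of lymphoid tissue, was high in 2 of the 8 mice. Its levels were -5.35, -6.26, -5.91 and -4.77 on the STD diet and -5.11, -6.07, -0.95 and -2.45 on the ATH diet. The signal was well above background and passed every flag on 1 STD array and 3 ATH arrays, so the probe entered the test only through the ATH diet. The log2 fold change of 1.93 (SE 1.01, 95% interval -0.36 to 4.21) did not pass (limma adjusted p = 0.241). Only 0.0419% of tested probes had a larger SD among ATH mice, and without ATH mice 3 and 4 the difference was -0.02.

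Pla2g5 and the pancreatic Pla2g1b were near the lower limit of the arrays. Pla2g5 ranged from -5.65 to -4.99 on the STD diet and from -6.50 to -4.83 on the ATH diet, with a log2 fold change of -0.44 (95% interval -1.20 to 0.32, limma adjusted p = 0.409). Pla2g1b was detected on 2 arrays of each diet, ranged from -5.67 to -4.35 on the STD diet and from -5.97 to -4.25 on the ATH diet, and was not tested. Of 13 pancreatic acinar markers, 11 were tested and 0 changed by limma, and their summed level was -0.08 to 0.20 on STD arrays and -0.36 to 0.12 on ATH arrays.

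**Figure D2:**
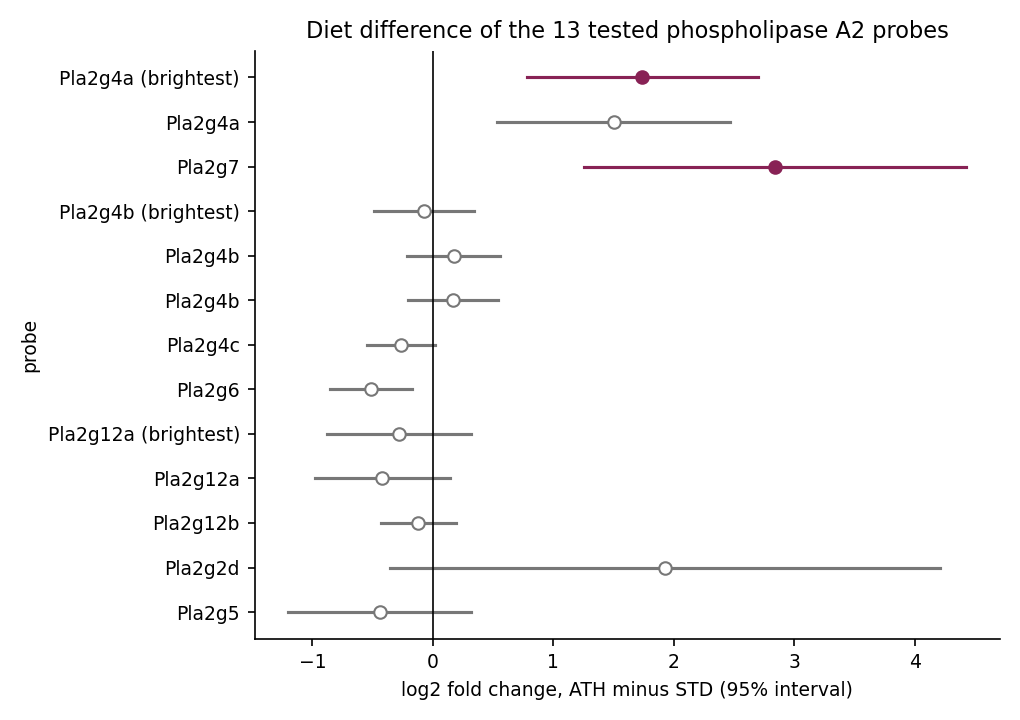
Log2 fold change (ATH minus STD, x axis) with its 95% interval for the 13 tested phospholipase A2 probes (y axis), from limma on all tested probes. Filled points passed a false discovery rate of 5%. The filled points are the brightest Pla2g4a probe (1.74) and Pla2g7 (2.84), the intervals of the dimmer Pla2g4a probe and of Pla2g6 also leave out 0, and the Pla2g2d interval is the widest.

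Since a difference between 2 genes on the same array does not depend on how arrays were scaled, members detected in 3 or more mice of each diet were also compared pairwise. Among 21 pairs of 7 genes, 10 had the smallest p that a two-sided exact permutation test over 70 assignments can give (p = 0.0286), and each of those set Pla2g4a or Pla2g7 against Pla2g4b, Pla2g4c, Pla2g6, Pla2g12a or Pla2g12b. The difference was largest for Pla2g7 against Pla2g6 (3.35) and smallest for Pla2g4a against Pla2g4b (1.81). After Benjamini-Hochberg adjustment over the 21 pairs these reached 0.06 in the exact permutation test, and 0 pairs passed 5%. With so few assignments, an adjusted p under 5% needed more than 10 pairs at the smallest p, so the adjusted result cannot decide the question. The 10 pairs repeat Pla2g4a or Pla2g7 each time and are not separate results. Pla2g4a and Pla2g7 differed from each other in their response by 1.10 on the log2 scale (exact permutation test, p = 0.0571, adjusted p = 0.109).

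Pla2g4a and Pla2g7 followed each other across the 8 arrays (Pearson r = 0.995, and 0.985 for deviations from the diet means, over 8 arrays that share the slides and the diets). In order of likeness, Pla2g7 was number 36 of 16553 genes for Pla2g4a, and Pla2g4a was number 25 for Pla2g7. The genes most like Pla2g4a were Myof (r = 0.999), Lyz1 (r = 0.998) and Rgl1 (r = 0.998). Those most like Pla2g7 were Sla (r = 0.999), Ppp1r3d (r = 0.998) and Cox6a2 (r = 0.998). The pattern they share is ATH mouse 2 lowest of its diet, then mouse 1, and mice 3 and 4 highest. The correlations are descriptions over 8 mice. That of Pla2g4a with Pla2g7 rests mainly on the ATH arrays, where the SD was 0.997 and 1.68. On the STD arrays it was 0.13 and 0.23.

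The summed level of the macrophage markers had the same order of ATH mice, as did 13 of the 18 markers singly (not Clec4f, Cd163, Trem2, Vsig4 and Timd4). Of 18 macrophage markers, all tested, 11 rose, 0 fell and 7 did not pass by limma at 5%, against 9.35% of all tested genes, and their median log2 fold change was 1.91 beside -0.14 for all genes. With the replicate block 8 of them passed, and with an array left out 2 (without STD mouse 1, STD mouse 3 or ATH mouse 3) to 14 (without ATH mouse 2). The summed level of the 18 genes was 6.24 to 6.67 on STD arrays and 8.09, 7.18, 9.33 and 9.49 on ATH arrays 1 to 4. It was weighted to the brightest probes, such as that of Lyz2 with 6.84, 6.07, 8.35 and 8.41 on the same ATH arrays. Gpnmb, a glycoprotein of lipid-laden macrophages, was not well above background on any STD array and entered the test only through the ATH diet. It was at least 56.7-fold higher on the ATH diet, where the bright mean is set against the lowest signal called above background. Its limma adjusted p of 0.00677 rests on STD values that were not well above background. Itgax rose 15.1-fold, Marco, a scavenger receptor, 10.8-fold, Trem2, a lipid receptor of macrophages, 8.96-fold, Cd14 5.91-fold and Ccr2 5.05-fold. Clec4f, Timd4, Vsig4 and Cd163, genes of resident macrophages picked from the list after their values were seen, did not pass and differed in sign. Their log2 fold changes were 0.32 for Clec4f (limma adjusted p = 0.290), 0.94 for Timd4 (0.0528), 0.65 for Vsig4 (0.0834) and -1.33 for Cd163 (0.109).

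Markers of other cells were read in the same way. Of 7 tested dendritic markers, Flt3 rose by 0.62 and Xcr1 fell by 0.67. Siglech also passed, but it was above background on only 1 STD array and entered the test through the ATH diet. With the replicate block 0 of the 7 passed in limma at an adjusted 5%, and 7 had an unadjusted p under 0.05. The list had a summed level of 2.48 to 3.47 on STD arrays and 5.27, 3.52, 6.76 and 6.999 on ATH arrays. Nearly all of that sum was H2-Ab1, which did not pass (limma adjusted p = 0.0634). H2-Ab1 had levels of 2.31 to 3.39 on STD arrays and 5.24, 3.42, 6.74 and 6.99 on ATH arrays, so the sum does not stand for the list. Of 10 T, B and NK cell markers 0 passed by limma, and their summed level was 0.50 to 0.88 on STD arrays and 1.35, 0.43, 2.20 and 2.42 on ATH arrays. Of 8 tested neutrophil markers 0 passed, with a summed level of 0.90 to 1.98 on STD arrays and 1.79 to 3.94 on ATH arrays. Hepatocyte markers fell in 4 of 17 cases (Tat by 1.05, Arg1 by 0.77, Hpd by 0.61 and Ttpa by 0.53), beside 5.3% of all tested genes called lower. This count depended on the setting. It was 1 with the replicate block or quantile normalization, 2 with spike-in scaling and 7 with normexp. Without scaling 1 fell and 1 rose, and the Ttpa difference shrank to -0.08. The part of the macrophage and other immune markers in the levels of Pla2g4a, Pla2g7 and Pla2g2d was not tested. In bulk liver, more cells of a type and more RNA per cell cannot be told apart.

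**Figure D3:**
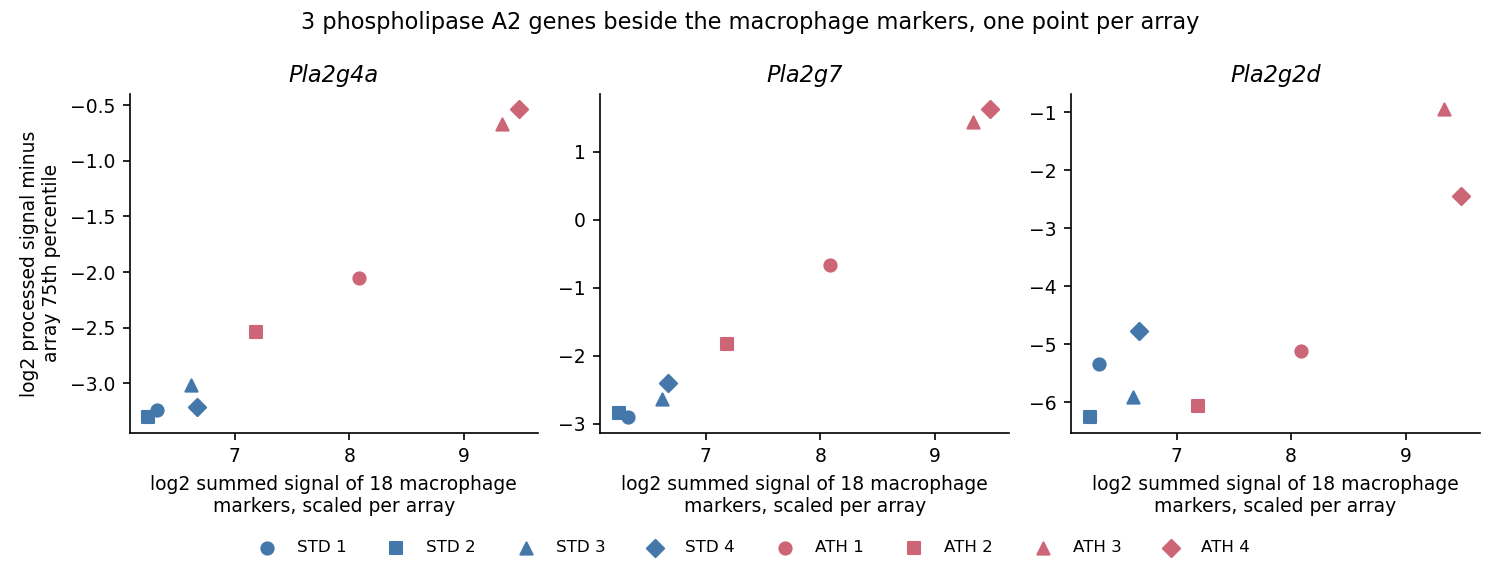
Scaled log2 level of Pla2g4a, Pla2g7 and Pla2g2d (y axes, a separate scale for each gene) against the log2 summed signal of 18 macrophage markers (x axis), with 1 point per array and symbols by diet and replicate number. The sum is weighted to its brightest probes. Along the ATH arrays the macrophage level runs 7.18, 8.09, 9.33 and 9.49, and Pla2g4a and Pla2g7 rise in that order, while Pla2g2d leaves the STD range on the last 2 alone.

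The genes that act beside these enzymes were followed in 5 lists. Among enzymes and receptors of the same reaction outside the 10 members, such as Pla2g15 of lysosomes and the platelet-activating factor hydrolases, 0 of 11 tested genes passed by limma, with a median log2 fold change of -0.05. Pafah2 was the only member of this list whose groups did not overlap (log2 fold change -0.43, limma adjusted p = 0.117). Of 12 patatin-like phospholipases and lysophospholipases, 1 rose (Pnpla5, log2 fold change 0.72, limma adjusted p = 0.0486) and 0 fell. Of 12 proteins that regulate group IV enzymes or bind the same membranes, 2 rose, the annexins Anxa2 (1.77, limma adjusted p = 0.0101) and Anxa3 (1.32, limma adjusted p = 0.0228). Anxa1, an annexin induced by glucocorticoids, had levels of -0.72 to -0.49 on the STD diet and 0.06 to 1.69 on the ATH diet, and just missed the threshold (limma adjusted p = 0.0543).

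The enzymes that put fatty acids back into phospholipids went in both directions under the scaling reported. Of 14 tested genes, Lpcat2, which makes platelet-activating factor and its precursors, rose by 1.91 (limma adjusted p = 0.0460), while the acyl-CoA synthetases Acsl1 and Acsl5 fell by 1.05 and 0.78 (limma adjusted p = 0.0362 and 0.0343). Lpcat2 levels on the ATH diet were -0.40, -1.10, 0.80 and 1.36 against -2.05 to -1.55 on the STD diet, again with mice 3 and 4 highest. Of 12 genes of other routes of fatty acid release, Faah, which hydrolyses fatty acid amides such as anandamide, fell by 0.58 (limma adjusted p = 0.0431) and 0 rose. Over the 5 lists, 7 of 61 tested genes passed (11.5%, beside 9.35% of all genes called), and 4 genes passed with the replicate block. The direction of each of the 7 held with every scaling tried, but the falls were smaller without scaling between arrays (0.61 for Acsl1, 0.33 for Acsl5 and 0.13 for Faah on the log2 scale) and the Pnpla5 difference was larger (1.17). The calls depended on the scaling. Without scaling 3 of the 14 genes and 4 of the 12 were called higher and 0 lower. With spike-in scaling 1 of each list was called higher and 0 lower. Of the 14, median scaling called 1 higher and 1 lower, and quantile normalization 0 higher and 1 lower. Of the 12, both called 0.

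The 2 members that rose were compared in their promoters, since they had the same order of mice on the ATH arrays. Promoter sequence was given for 9 of the 10 genes, from RefSeq on GRCm38.p6. The 250 bases before each start were searched on both strands for the TATA box (letters TATAAA), the CCAAT box (letters CCAAT), the AP-1 motif (letters TGANTCA), the PU.1 motif (letters GAGGAAGT) and the GC box (letters GGGCGG), and matches are in capitals. These motifs were chosen with the array results known, and an NF-kB motif that was also searched is not reported here. The windows of Pla2g4a, which has 2 annotated starts, and of Pla2g7 read as follows.
Pla2g4a, first start, chr1:149961291-149961540, minus strand: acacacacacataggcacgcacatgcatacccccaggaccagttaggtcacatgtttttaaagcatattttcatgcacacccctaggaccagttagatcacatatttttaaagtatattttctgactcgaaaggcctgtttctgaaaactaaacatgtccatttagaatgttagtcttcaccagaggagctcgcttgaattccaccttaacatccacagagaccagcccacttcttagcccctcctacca
Pla2g4a, second start, chr1:149922440-149922689, minus strand: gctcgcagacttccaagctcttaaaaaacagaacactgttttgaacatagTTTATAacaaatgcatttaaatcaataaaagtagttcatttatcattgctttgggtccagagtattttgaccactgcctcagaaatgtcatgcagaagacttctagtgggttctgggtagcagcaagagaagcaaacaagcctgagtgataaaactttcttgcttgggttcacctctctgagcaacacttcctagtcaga
Pla2g7, chr17:43568201-43568450, plus strand: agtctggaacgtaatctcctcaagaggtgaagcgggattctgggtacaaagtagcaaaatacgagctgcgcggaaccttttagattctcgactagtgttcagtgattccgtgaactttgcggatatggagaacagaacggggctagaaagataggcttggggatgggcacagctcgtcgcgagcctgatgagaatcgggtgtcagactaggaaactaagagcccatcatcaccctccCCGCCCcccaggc
The second Pla2g4a window held a TATA box match on the reverse strand, 200 bases before the start at its far end, and the Pla2g7 window a GC box 13 bases before the start. Over all 32851 promoters of this length, 12.4% held the TATA box and 32.7% the GC box. The AP-1, PU.1 and CCAAT letters were not in these 3 windows, while 6.75%, 2.44% and 33.8% of all promoters held them. The Pla2g6 window held 2 CCAAT matches and 3 GC boxes, a pair of which overlapped.

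**Figure D4:**
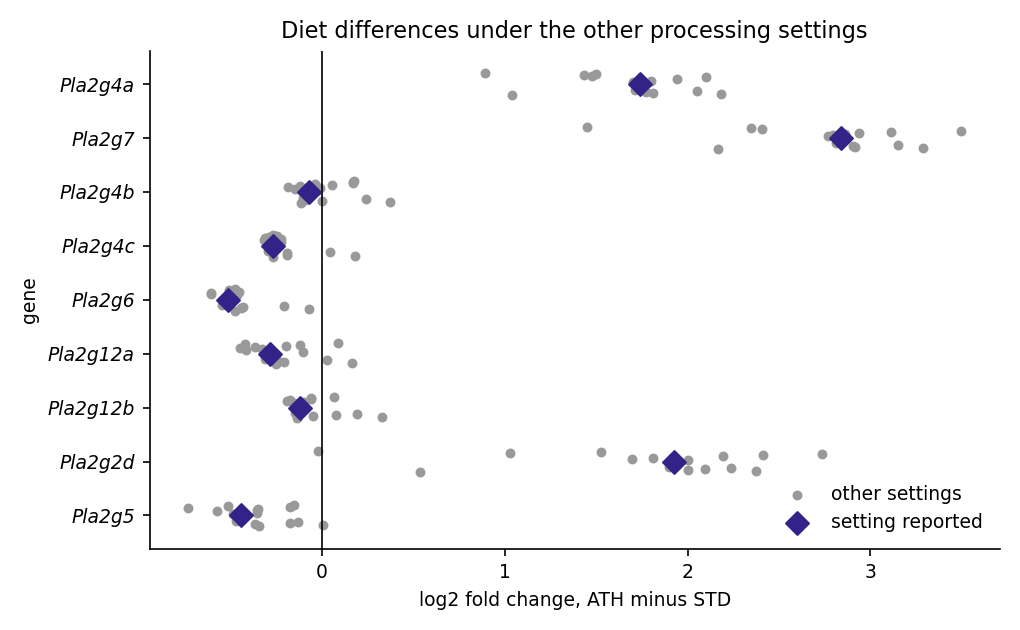
Log2 fold change (ATH minus STD, x axis) of the 9 tested phospholipase A2 genes (y axis) under the setting reported (diamonds) and the other settings (dots). The dots include each array left out in turn, the other probes of a gene, and ATH mice 3 and 4 left out together. That last removal was chosen after seeing the data and has no test. It gives the lowest dots of Pla2g4a and Pla2g7 and the only Pla2g2d dot below 0. Pla2g4a stays between 0.89 and 2.18 and Pla2g7 between 1.45 and 3.50, Pla2g6 stays below 0 (-0.61 to -0.07), and the dots of the remaining genes lie on both sides of 0.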

How the data were processed

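The members and lists were chosen with earlier results of these data known. Agilent Feature Extraction (9.5 per the submitters' processing notes) gave the deposited spot intensity values of 8 arrays, background-subtracted and detrended by the authors. The authors also deposited a log2 table, which differed from the logged array output by array and probe constants alone, within 0.01, for 100% of 31580 probes compared, and whose column medians run from -0.04 to 0.16. Its baseline stays unknown, and it served as an alternative.

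Control spots and spots marked as outliers were left out, spots of a probe were averaged, and the 75th percentile over non-control probes was subtracted on the log2 scale. A probe was detected when well above background, positive and significant and no outlier on at least 3 arrays of either diet (31063 probes). Diet was tested with limma 3.58.1 in R 4.3.3 (lmFit, eBayes), with two-sided p adjusted by Benjamini-Hochberg over all detected probes and called at 5%. The study's threshold of 1% is an alternative. Each gene was represented by its brightest detected probe. Members were found by the gene name in the array files. Other probes were named through a RefSeq table by accession (22944), symbol (6664) or synonym (3108), and 8458 stayed unnamed. The steps were tested on simulated data. Exact tests used Python 3.11.15 with scipy 1.17.1 and figures matplotlib 3.10.9.

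The genes named are all members, then the genes of the pathway and marker lists called at 5% (at most 6 per list by fold change), and the 3 genes most like each called member. Others named (Anxa1, Pafah2, Clec4f, Timd4, Vsig4, Cd163, H2-Ab1, Lyz2) were chosen after their values were seen. A list's summed level is the log2 of the sum of its probes' scaled signals, so that the brightest probes weigh most. Arrays of the same number share a slide position, and the correlations of their residuals over probes were 0.10, 0.23, 0.18 and 0.18. Each was over 0.1, so that position was taken as a pairing. Arrays of different number ran from -0.25 to 0.175. The highest of these (STD array 2 with ATH array 1) exceeded the 0.10 of the first same-number pair, so the residuals bear out the pairing only in part. Alternatives covered background correction, scaling, filter, test, threshold, probe, replicate block and each array left out.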

Additional observations from a re-analysis of the deposited data

Results flagged for a closer look

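Of 30 groups of 4 arrays examined for the member probes, 1 had an array far from the others, where chance flags about 1 in 20 groups. It was the lowest ATH array of the second Pla2g4c probe, whose gap to the nearest array took 0.863 of the whole range of its group. This probe was not well above background on any of the 8 arrays (means of -7.28 ± 0.27 on the STD diet and -6.95 ± 0.54 on the ATH diet, SD, n = 4), and no result rests on it.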

How the results depend on the processing

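Pla2g4a and Pla2g7 were higher on the ATH diet under every setting run, but 2 called members became 1 with quantile normalization (Pla2g7 adjusted p = 0.0523) and 0 with no filter, the methods' test, the replicate block or a 1% threshold. With an array left out the members called ranged from 0 to 2. They numbered 0 without any STD mouse (adjusted p of 0.0843 to 0.108 for both genes) or without ATH mouse 3 or 4 (0.0966 to 0.101), 1 without ATH mouse 1 (Pla2g4a) and 2 without ATH mouse 2. The methods' test, with unequal variances, gave adjusted p of 0.2 and 0.205 for both genes. It called 22 probes, 0 pathway genes and 0 markers at 5%, and 7102 probes at an unadjusted p under 0.05, where limma had 8818.

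The 2483 probes, 7 pathway genes and 22 marker genes called became 6394, 14 and 41 with normexp, 7366, 19 and 51 without scaling, 1086, 2 and 8 with no filter, 1322, 4 and 14 with the replicate block, and 164, 0 and 1 at 1%. Pathway genes numbered 11 with spike-in scaling and 11 with limma's trend and robust options. With an array left out they ranged from 394 to 3979 probes, 1 to 13 pathway genes and 3 to 37 markers. Called probes were higher on the ATH diet in 38.2% of cases, and in 18.9% with normexp, 94.9% without scaling, 86.5% with spike-in scaling, 55.0% with median scaling and 54.3% with quantile normalization. Over all probes the median was 0.16 by spike-in scaling and 0.30 unscaled. The block changed no other member's call.

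Members that were not called turned direction as follows. Without scaling the values were 0.37 (Pla2g4b), 0.18 (Pla2g4c), 0.01 (Pla2g5, 0.00529 before rounding), 0.17 (Pla2g12a) and 0.33 (Pla2g12b). With spike-in scaling they were 0.24 (Pla2g4b), 0.0451 (Pla2g4c), 0.0293 (Pla2g12a) and 0.19 (Pla2g12b). Pla2g12b was 0.0780 with quantile normalization. Pla2g4b was 0.0024 with median scaling, from -0.187 to 0.0570 with an array left out (above 0 without ATH mouse 3) and 0.17 at each of its other probes. Without ATH mice 3 and 4, chosen after seeing the data and with no test, Pla2g4b was 0.18, Pla2g12a 0.09, Pla2g12b 0.07 and Pla2g2d -0.02. The cause was not tested, except that scaling moves all probes of an array alike. Signal over background limits Pla2g5, Pla2g2d and Pla2g1b.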

Other observations

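Markers of other cells of the liver that bear on no result above gave these values. Of 12 stellate cell markers, 2 rose by limma at 5% (Col3a1, a fibrillar collagen, by 1.74 and Ngfr by 0.60), beside 4.05% of all tested genes called higher. All 12 had a log2 fold change above 0, with a median of 0.37, beside 32.9% of all tested probes above 0. Of 7 cholangiocyte markers Sox9 rose by 1.04, and of 9 endothelial markers Lyve1 rose by 1.21. Without scaling, 11 stellate, 2 cholangiocyte and 6 endothelial markers were called higher, and with no filter 0 of each. Of 5 tested adipocyte markers 0 passed, with a median log2 fold change of -0.61.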
